A study of Caenorhabditis elegans with 22 samples.

Results

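The libraries described here measured the response to high salt that remained in C. elegans embryos mutant for daf-16, the gene that encodes the worm's FOXO transcription factor. They were chosen by their titles, as 3 libraries of daf-16 embryos kept at 500 mM NaCl and 3 of daf-16 embryos kept at 50 mM NaCl. They make up 6 of the 22 libraries of the series. The study placed embryos on agar plates with either NaCl concentration, collected them after 3 h and sequenced their RNA. It asked how embryos regulate development under osmotic stress. The mutant groups differed from each other in NaCl only and shared the daf-16 mutation. Their strain label lists a pair of alleles, m26 and mu86, whereas the growth protocol and the methods name daf-16(m26). The allele is therefore given here as m26 with that doubt. The wild-type strain N2 was measured in 3 libraries at 50 mM and 3 at 500 mM NaCl, assigned here to the same experiment from the library numbers. Of the 3 at 50 mM, 2 have library numbers from another run of numbers than the other libraries of this experiment. Embryos mutant for ssu-1, a cytosolic sulfotransferase gene, were measured in a separate experiment, in 2 libraries at 50 mM and 3 at 500 mM NaCl. Their strain label lists fc73 among several ssu-1 alleles beside transgenes. Neither the age of the embryos nor the number of separate cultures is given in the sources used here. The p-values therefore measure the spread between these libraries, which may be technical.

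DAF-16 is the main transcriptional output of the insulin-like pathway of C. elegans. When signalling through the insulin receptor DAF-2 is low, DAF-16 enters the nucleus and switches on genes for stress resistance, metabolism and developmental arrest. Cells under hyperosmotic stress lose water, and worms answer by accumulating glycerol, which is made from glycolytic intermediates and balances the external osmolarity. Salt regulation of the glycerol enzymes has been studied mostly in larvae and adults, where damage to the cuticle also switches them on.

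At 50 mM the daf-16 gene was higher in the mutant libraries than in wild type, and at 500 mM the genotypes overlapped, so its level gave no check of the genotype. Levels are given in FPKM, the unit of the deposited table, in which a gene's fragments are scaled to its transcript length and to the depth of the library. In the mutant libraries daf-16 stood at 149, 156 and 155 FPKM at 50 mM NaCl and at 206, 289 and 253 FPKM at 500 mM, a log2 change of 0.69 ± 0.12 (SE, n = 3 libraries per concentration; limma adjusted p = 1.50e-04). In wild type it stood at 88.5, 91.2 and 74.0 FPKM and at 250, 220 and 217 FPKM. Marker genes were used to look for adult tissue, and they do not settle the embryo label otherwise. The filter on low values can be passed in any 2 of the 12 libraries of the experiment. Of the marker genes, 33 of 35 genes of late embryonic tissues and 20 of 24 maternal and early embryonic genes passed it. Of 41 genes for yolk proteins of the adult intestine and major sperm proteins 3 did. The summed level of these 41 genes was 2.83 to 3.14 FPKM at 50 mM and 9.31 to 10.53 FPKM at 500 mM in the mutants. The depth was estimated at 20300000 to 25400000 fragments per mutant library. The same fit gave fragment lengths of 48 to 74 nucleotides, shorter than a single read in the study's methods, so the estimate is rough. The summed FPKM of all genes was 841772 to 858654 at 50 mM and 736577 to 755606 at 500 mM. Bringing every library to the same total moved the median log2 change of all genes in the mutants from -0.06 to 0.11, and quantile normalization moved it to 0.01. Directions are given on the deposited scale. Some counts depend on this shift, and not all of these are named.

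A broad salt response remained in the mutants. Of 14868 genes tested, 11618 (78.1%) changed with 500 mM NaCl in daf-16 embryos, 5511 (37.1%) of them upward and 6107 (41.1%) downward. By more than 2-fold, 2006 genes (13.5%) rose and 2646 (17.8%) fell (limma on log2(FPKM + 1), Benjamini-Hochberg adjusted p under 0.05). The libraries at the different concentrations did not overlap for 2003 of the 2006 and 2645 of the 2646 genes. Over all genes tested 39.5% did not overlap and were higher and 43.8% did not overlap and were lower. Large changes were more often decreases. By the adjusted p, 85 genes rose and 186 fell by a log2 change beyond 3, and 15 rose and 51 fell beyond 4. Higher genes made up 43.1% of the genes past 2-fold as deposited, 55.5% after rescaling to the same total (2648 higher and 2127 lower) and 50.5% after quantile normalization (2235 and 2194). Without the 2-fold limit 6333 genes rose and 5253 fell after rescaling, and 5774 and 5506 after quantile normalization. The added 1 FPKM makes the fold change of a weakly expressed gene too small. In whole embryos fewer cells of a type and less RNA per cell cannot be told apart.

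**Figure D1:**
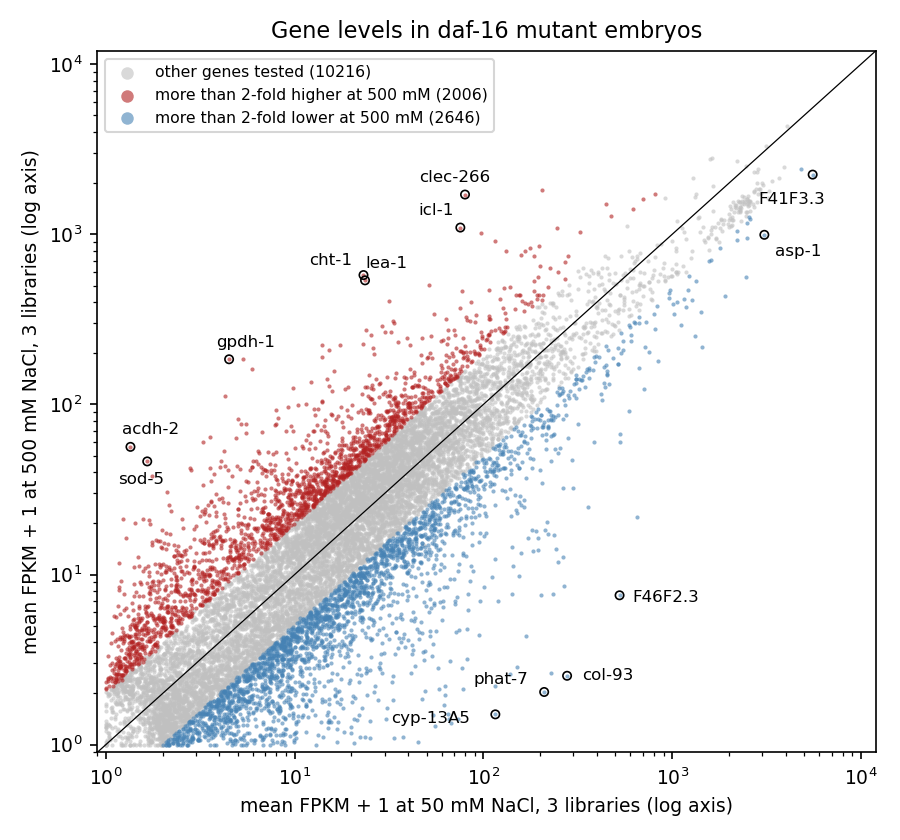
Mean FPKM + 1 of each gene tested in daf-16 embryos at 50 mM (x axis) and 500 mM NaCl (y axis), both on log scales. Genes that rose or fell by more than 2-fold (2006 and 2646) are in color and the remaining 10216 in grey. gpdh-1 and acdh-2 lie far above the diagonal, and the collagen col-93, phat-7 and the cytochrome P450 cyp-13A5 far below it.

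All 6 genes of glycerol metabolism that were tested rose in the mutants, 4 of them by more than 2-fold, with a median log2 change of 3.23 beside -0.06 over all genes tested. gpdh-1, a glycerol-3-phosphate dehydrogenase that carries out the committed step of glycerol synthesis, stood at 4.35, 3.26 and 2.88 FPKM at 50 mM and at 189, 189 and 172 FPKM at 500 mM NaCl. Its mean rose 52.4-fold (log2 change 5.37 ± 0.15, adjusted p = 1.36e-10), 1 of 3 genes with a log2 change beyond 5. pgph-2, of the phosphatase family that can release glycerol from glycerol 3-phosphate, stood at 3.63, 4.26 and 5.02 FPKM at 50 mM and at 168, 196 and 185 FPKM at 500 mM (log2 change 5.12 ± 0.11, adjusted p = 4.15e-11). pgph-3 of the same family stood at 3.42, 3.43 and 2.93 FPKM and at 105, 134 and 96.7 FPKM (log2 change 4.71 ± 0.15, adjusted p = 1.86e-10). For each of these genes the concentrations were far apart and the replicates close together. gpdh-2, a second dehydrogenase that is already abundant in unstressed embryos, stood at 87.6, 84.5 and 96.5 FPKM and at 292, 333 and 288 FPKM (log2 change 1.75 ± 0.09, adjusted p = 9.68e-09). In wild type gpdh-1 and pgph-3 changed by log2 5.28 and 4.52, and the difference from the mutants did not pass for either (0.09 ± 0.22, adjusted p = 0.779 and 0.19 ± 0.21, adjusted p = 0.528). gpdh-2 rose more in the mutants than in wild type, by a log2 difference of 0.66 ± 0.13 (adjusted p = 0.00761), and so did pgph-2, by 0.55 ± 0.16 (adjusted p = 0.0327). The call of pgph-2 was lost without wild-type replicate 4, 5 or 6 or mutant replicate 2 or 3 at 500 mM, without mutant replicate 1 or 2 at 50 mM, and at a pseudocount of 0.1.

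**Figure D2:**
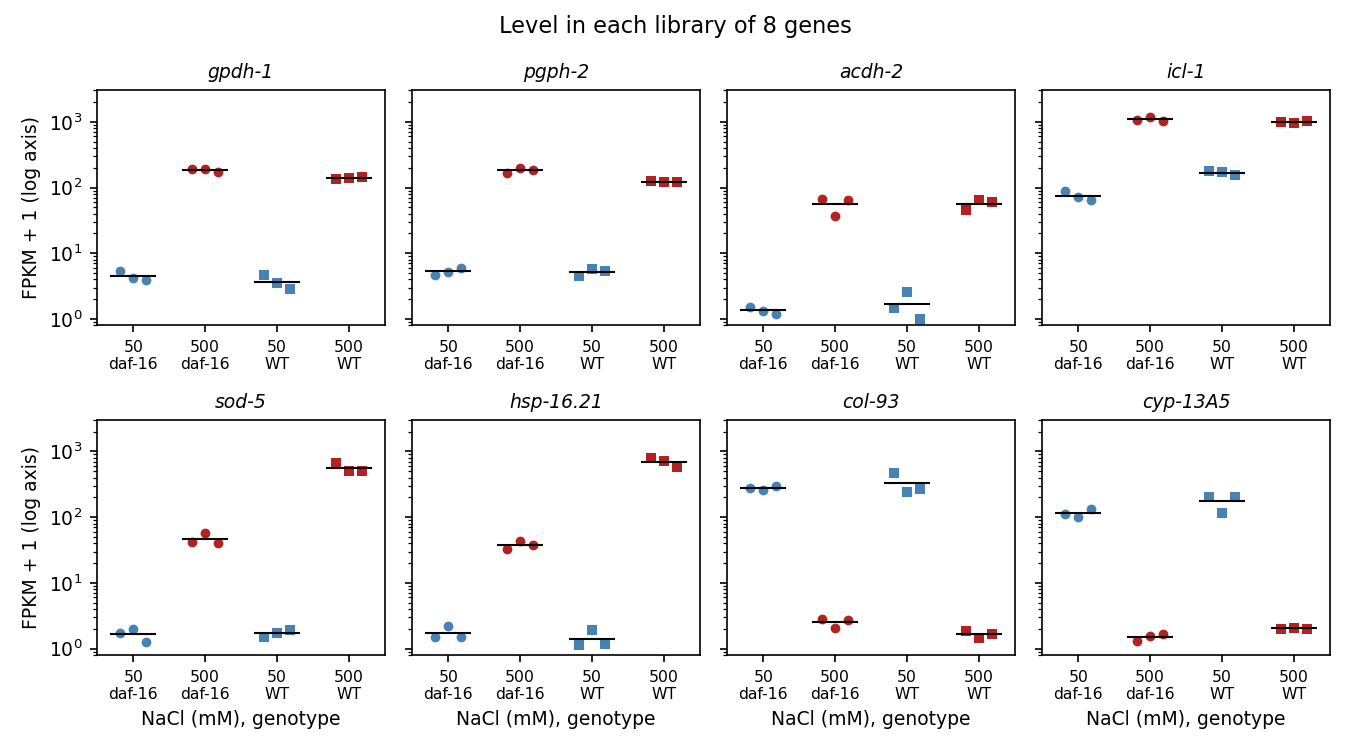
FPKM + 1 on a log scale for 8 genes in each library of the daf-16 experiment at 50 and 500 mM NaCl, with mutant libraries as circles, wild-type libraries as squares, 50 mM in blue, 500 mM in red and horizontal lines at the group means. At 500 mM the genotypes overlap for acdh-2, pgph-2 stands at 168 to 196 FPKM in the mutants and 122 to 123 FPKM in wild type, and sod-5 and hsp-16.21 reach 39.2 to 55.9 and 31.9 to 41.8 FPKM in the mutants and 508 to 654 and 575 to 783 FPKM in wild type.

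Other genes tied to water loss moved unevenly. lea-1, which encodes a late embryogenesis abundant protein of the kind that protects other proteins during desiccation, stood at 23.2, 23.4 and 21.2 FPKM at 50 mM and at 449, 627 and 529 FPKM at 500 mM in the mutants (log2 change 4.49 ± 0.12, adjusted p = 1.12e-10). Its increase was large but smaller than in wild type, where it reached 1874 to 2310 FPKM (difference -1.58 ± 0.17, adjusted p = 8.78e-05). Of the 9 genes for trehalose and desiccation, 2 rose and 4 fell. For this list and the aquaporins below, the shares over all genes tested were 37.1% that rose and 41.1% that fell. The 5 trehalases, which break down the protective sugar trehalose, included 3 that fell. Of these, tre-3, fell from 16.6, 19.1 and 20.8 FPKM to 9.03, 9.14 and 10.1 FPKM (log2 change -0.92, adjusted p = 3.01e-05). Of 11 aquaporins, the channels that carry water and glycerol, 7 fell and 2 rose (median log2 change -0.96). aqp-1 fell from 44.9, 45.6 and 46.2 FPKM to 4.99, 3.70 and 4.18 FPKM (log2 change -3.15 ± 0.12, adjusted p = 8.99e-10). aqp-7 fell from 200, 202 and 206 FPKM to 36.0, 30.8 and 33.6 FPKM (log2 change -2.57). aqp-2 moved the opposite way, from 1692, 1604 and 1592 FPKM to 2696, 3082 and 2705 FPKM (log2 change 0.79, adjusted p = 1.67e-05).

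Of 19 regulators of the osmotic response tested, known mostly from larvae and adults, 10 rose and 6 fell, near the 78.1% of all genes that changed. Of 5 collagens of the cuticle furrows that were tested, whose loss in larvae switches on gpdh-1, 4 rose. dpy-7 went from 113, 102 and 101 FPKM to 327, 347 and 321 FPKM (log2 change 1.65 ± 0.18, adjusted p = 2.98e-06). dpy-3 went from 104, 98.3 and 89.0 FPKM to 251, 271 and 229 FPKM (log2 change 1.36). In ssu-1 embryos dpy-7 already stood at 331 and 310 FPKM and dpy-3 at 335 and 289 FPKM at 50 mM. Both fell slightly with salt there (log2 changes -0.23 and -0.31, limma adjusted p = 0.0367 and 0.0129). dpy-7 is also among the late embryo markers, and the part of these starting levels was not tested. wnk-1, a kinase that controls ion transport and cell volume, went from 40.6, 40.5 and 37.2 FPKM to 92.2, 104 and 102 FPKM (log2 change 1.31 ± 0.12, adjusted p = 4.64e-07). Of 5 secreted or extracellular negative regulators 3 fell. osm-11, a secreted Notch co-ligand whose loss raises gpdh-1 in unstressed animals, fell from 207, 212 and 218 FPKM to 53.6, 51.0 and 55.5 FPKM (log2 change -1.98 ± 0.16, adjusted p = 2.91e-07). For none of these 4 genes did the difference from wild type pass the interaction test, with values of -0.22, -0.47, 0.27 and 0.33 (adjusted p from 0.212 to 0.560).

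Single genes for acyl-CoA enzymes rose steeply with salt in the mutants, and their classes were mixed. Formed by symbol after the values were seen, these were acs (acyl-CoA synthetases), with 3 of 18 that rose and 8 that fell, ech (enoyl-CoA hydratases), with 4 of 10 that rose and 5 that fell, and acdh (acyl-CoA dehydrogenases), with 6 of 11 that rose and 2 that fell. acdh-2, an acyl-CoA dehydrogenase, stood at 0.53, 0.32 and 0.20 FPKM at 50 mM and at 66.2, 35.7 and 64.1 FPKM at 500 mM (log2 change 5.34 ± 0.31, adjusted p = 1.62e-08). This gene is also counted below in the list of propionate and branched-chain amino acid breakdown. acs-2, an acyl-CoA synthetase that activates fatty acids for mitochondrial oxidation, stood at 0.48, 0.14 and 0.10 FPKM and at 19.7, 21.1 and 19.9 FPKM (log2 change 4.11 ± 0.15, adjusted p = 6.46e-10). It was 1 of 2 genes listed under 0.5 FPKM in every mutant library at 50 mM and above 10 FPKM in every one at 500 mM. The other was fbxb-19, an F-box gene named here after its values were seen. It went from 0.44, 0.38 and 0 FPKM to 14.1, 16.6 and 15.9 FPKM (log2 change 3.71, adjusted p = 3.95e-09). icl-1, the enzyme of the glyoxylate cycle that lets worms build sugar from fat, was among the 8 genes that gained the most FPKM. It went from 88.1, 71.2 and 64.2 FPKM to 1057, 1195 and 1032 FPKM (log2 change 3.87 ± 0.11, adjusted p = 1.36e-10). The increase was larger than in wild type (log2 change 2.57 there, difference 1.30 ± 0.16, adjusted p = 2.67e-04). Wild type started higher, at 153 to 181 FPKM at 50 mM, and ended at 954 to 1040 FPKM. pyc-1, the pyruvate carboxylase that feeds gluconeogenesis, went from 32.5, 24.4 and 24.7 FPKM to 84.0, 77.4 and 82.6 FPKM (log2 change 1.56, adjusted p = 3.51e-08). Of the 4 genes of gluconeogenesis or the glyoxylate cycle 3 rose, beside 5 that rose and 8 that fell among 17 glycolytic genes. For these counts and those of the symbol classes above, 37.1% of all genes tested rose and 41.1% fell.

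Most enzymes of propionate and branched-chain amino acid breakdown rose, and lipid enzymes were mixed. asns-2, an asparagine synthetase, went from 112, 89.2 and 87.3 FPKM to 971, 1115 and 978 FPKM (log2 change 3.40 ± 0.15, adjusted p = 2.44e-09). Of 10 genes that break down propionate and branched-chain amino acids 8 rose, with a median log2 change of 0.35. acdh-1, an acyl-CoA dehydrogenase of the propionate shunt, went from 0.76, 0.47 and 0.41 FPKM to 3.22, 1.80 and 4.55 FPKM (log2 change 1.39, adjusted p = 0.00110). Among 14 enzymes of fatty acid synthesis, elongation and desaturation 7 rose and 5 fell, beside 37.1% and 41.1% of all genes tested. fat-6, a desaturase that makes oleic acid, went from 17.0, 21.1 and 18.9 FPKM to 38.3, 50.9 and 48.5 FPKM (log2 change 1.23 ± 0.13, adjusted p = 2.80e-06). It rose less than in wild type (2.72, difference -1.49 ± 0.19, adjusted p = 3.39e-04). The elongase elo-1 fell from 214, 225 and 242 FPKM to 63.9, 61.6 and 66.3 FPKM (log2 change -1.81). Its relative elo-2 fell from 92.2, 97.3 and 97.1 FPKM to 25.1, 27.7 and 29.5 FPKM (log2 change -1.76).

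Of 22 enzymes that make or remodel phosphatidylcholine, the main membrane phospholipid, 12 fell and 7 rose (median log2 change -0.36). Over all genes tested 41.1% fell and 37.1% rose. All 6 choline kinases and all 3 genes that supply and use methyl groups for phosphatidylcholine fell. sams-1, which makes the methyl donor S-adenosylmethionine, fell from 223, 221 and 252 FPKM to 65.0, 65.4 and 64.2 FPKM (log2 change -1.82 ± 0.08, adjusted p = 1.75e-09). The choline kinase ckb-2 fell from 18.8, 15.4 and 19.1 FPKM to 3.74, 2.59 and 3.59 FPKM (log2 change -2.13). cept-1, which joins the choline head group to the lipid, fell from 17.3, 14.9 and 18.1 FPKM to 4.79, 6.20 and 5.67 FPKM (log2 change -1.44). Of 6 patatin-like phospholipases tested, a family whose members release lysophospholipids, 4 rose and 1 fell (median log2 change 0.29), and both lysophospholipid acyltransferases rose. The phospholipase that fell, ipla-2, went from 74.0, 70.0 and 75.5 FPKM to 22.6, 26.5 and 25.3 FPKM (log2 change -1.52). The change of none of these 4 genes differed from that in wild type past the threshold, with differences of -0.33, 0.45, 0.01 and -0.16 (adjusted p from 0.0582 to 0.981).

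Classic targets of DAF-16 still moved in its mutants, on a smaller scale. Of 18 such targets tested 11 rose and 4 fell in daf-16 embryos, beside 14 and 3 in wild type, with median log2 changes of 0.81 and 1.67. For 8 of the 18 the change was more negative in the mutants and for 1 more positive, beside 11.2% and 6.85% of all genes tested. sod-5, a cytosolic superoxide dismutase, stood at 0.74, 0.98 and 0.25 FPKM at 50 mM and at 40.6, 55.9 and 39.2 FPKM at 500 mM in the mutants (log2 change 4.81 ± 0.18, adjusted p = 6.96e-10). Its wild-type libraries at 500 mM, at 654, 508 and 511 FPKM, lay far above every mutant library (difference -3.54 ± 0.26, adjusted p = 3.07e-06). ftn-1, a ferritin that stores iron, went from 4.11, 4.66 and 3.92 FPKM to 67.5, 86.6 and 73.0 FPKM (log2 change 3.87 ± 0.14, adjusted p = 5.59e-10). tts-1, a long non-coding RNA found on ribosomes of long-lived worms, went from 20.3, 19.6 and 26.7 FPKM to 188, 259 and 226 FPKM (log2 change 3.28 ± 0.20, adjusted p = 1.97e-08). mtl-2, a metallothionein, fell from 55.9, 45.1 and 60.1 FPKM to 5.01, 5.72 and 6.09 FPKM (log2 change -3.04 ± 0.23, adjusted p = 1.20e-07).

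For some genes little of the wild-type increase remained. sod-3, the mitochondrial superoxide dismutase widely used as a reporter of DAF-16, stood at 1.98, 2.28 and 2.25 FPKM and at 4.41, 6.18 and 4.66 FPKM in the mutants (log2 change 0.93 ± 0.21, adjusted p = 0.00110). It reached 160 to 190 FPKM at 500 mM in wild type (difference -3.73 ± 0.29, adjusted p = 5.30e-06). hsp-12.6, a small heat-shock protein gene, stood at 1.74, 0.79 and 2.37 FPKM and at 5.18, 5.17 and 4.92 FPKM (log2 change 1.26, adjusted p = 0.00135). In wild type it reached 186 to 239 FPKM (difference -5.04 ± 0.40, adjusted p = 6.95e-06). clx-1 stayed between 0 and 1.16 FPKM in every mutant library and reached 214 to 308 FPKM in wild type at 500 mM (difference -7.17 ± 0.24, adjusted p = 2.70e-09). ilys-6, an invertebrate-type lysozyme gene, stayed between 0 and 1.36 FPKM and reached at least 97.5 FPKM in every wild-type library at 500 mM (difference -5.62 ± 0.20, adjusted p = 2.88e-09). A pair of genes fell in the mutants and rose in wild type. acs-21, an acyl-CoA synthetase gene, fell from 4.63, 5.20 and 5.08 FPKM to 2.09, 2.13 and 1.82 FPKM in the mutants. In wild type it rose to 47.9 to 61.6 FPKM (difference -4.28 ± 0.16, adjusted p = 3.93e-09). ctl-3, a catalase, fell slightly, from 14.8, 16.6 and 20.2 FPKM to 11.7, 12.4 and 14.1 FPKM (log2 change -0.40, adjusted p = 0.00716, but 0.0838 after rescaling to the same total). In wild type it rose to 122 to 141 FPKM (difference -2.77 ± 0.16, adjusted p = 4.37e-07).

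fipr-22, of the fungus-induced peptide family of the epidermis, went from 3.09, 3.48 and 2.65 FPKM to 43.0, 48.9 and 45.0 FPKM (log2 change 3.52 ± 0.10, adjusted p = 1.36e-10). Wild type reached 977 to 1226 FPKM (difference -3.91 ± 0.15, adjusted p = 3.93e-09). Of the 17 members of that family tested 12 fell and 5 rose. fipr-1 fell from 162, 148 and 194 FPKM to 2.02, 3.91 and 4.21 FPKM (log2 change -5.30). fipr-21 fell from 534, 536 and 511 FPKM to 66.0 FPKM or less (log2 change -3.15). T23F2.4, which is in none of the gene lists, went from 3.51, 6.20 and 5.16 FPKM to 129, 192 and 161 FPKM (log2 change 4.77 ± 0.20, adjusted p = 1.39e-09). It too rose less than in wild type (log2 change 6.50, difference -1.73 ± 0.29, adjusted p = 0.00218). Of 16 antimicrobial peptides of the epidermis 7 fell and 3 rose, beside 41.1% and 37.1% of all genes tested. Of the 16, 10 changed more negatively than in wild type, beside 11.2% of all genes tested. nlp-27 fell from 62.6, 54.3 and 57.9 FPKM to 9.94, 12.3 and 9.19 FPKM (log2 change -2.38, difference -1.21, adjusted p = 0.00723). The caenacin cnc-2 fell from 39.1, 27.2 and 33.8 FPKM to 5.33, 4.59 and 3.66 FPKM, less than in wild type (difference 1.55, adjusted p = 0.0130).

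Of 27 heat-shock and chaperone genes 11 rose and 7 fell in the mutants, beside 37.1% and 41.1% of all genes tested. hsp-16.21 went from 0.52, 1.22 and 0.52 FPKM to 31.9, 41.8 and 36.4 FPKM (log2 change 4.44 ± 0.21, adjusted p = 3.30e-09). It rose far less than in wild type (log2 change 8.97, difference -4.53 ± 0.30, adjusted p = 1.15e-06). hsp-16.20 rose from 2.40, 1.70 and 3.71 FPKM to 29.3, 36.2 and 38.1 FPKM in the mutants (log2 change 3.33 ± 0.21, adjusted p = 3.59e-08). Its difference from wild type did not pass (-0.14 ± 0.30, adjusted p = 0.763). The 6 heat-inducible genes hsp-16.1, hsp-16.2, hsp-16.11, hsp-16.41, hsp-16.48 and hsp-16.49 gave 0 calls by limma, also at an unadjusted p under 0.05. Their libraries scattered widely. hsp-16.2, described here after its values were seen, stood at 35.8, 21.0 and 29.2 FPKM at 50 mM and at 28.4, 2.71 and 17.0 FPKM at 500 mM. Replicate 2 at 500 mM lay far below the others (log2 change -1.21, adjusted p = 0.101, and 0.0206 without replicate 1 at 500 mM). The inducible Hsp70 genes F44E5.4 and F44E5.5, likewise named after their values were seen, are a near-identical pair whose reads may have been split between them. F44E5.4 went from 47.8, 20.1 and 19.96 FPKM to 163, 43.9 and 144 FPKM. F44E5.5 went from 73.5, 33.2 and 37.2 FPKM to 211, 48.1 and 171 FPKM. For each of the pair replicate 2 at 500 mM overlapped the range at 50 mM. The calls of F44E5.4 (log2 change 1.88, adjusted p = 0.0122) and F44E5.5 (1.40, adjusted p = 0.0436) were lost without replicate 1 at 500 mM (adjusted p = 0.0556 and 0.173). That of F44E5.5 was also lost without replicate 3 at 500 mM (adjusted p = 0.138) and without replicate 2 or 3 at 50 mM (adjusted p = 0.131 and 0.111). Without single mutant libraries the number of heat-shock genes that rose was 8 to 14. sip-1, a small heat-shock protein of embryos, went from 12.7, 12.2 and 10.8 FPKM to 98.0, 57.8 and 102 FPKM (log2 change 2.71, adjusted p = 2.89e-06). The mitochondrial chaperone hsp-60 fell from 327, 310 and 308 FPKM to 76.9, 70.5 and 80.1 FPKM (log2 change -2.04 ± 0.10, adjusted p = 3.43e-09).

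Of 13 genes of the insulin-like pathway tested, daf-16 included, 7 rose and 5 fell, beside 78.1% of all genes that changed. daf-2, the receptor, went from 26.4, 27.0 and 24.8 FPKM to 35.3, 40.9 and 40.0 FPKM (log2 change 0.55, adjusted p = 2.97e-04). akt-1, the kinase that phosphorylates DAF-16, went from 34.6, 36.7 and 37.4 FPKM to 68.4, 72.0 and 75.4 FPKM (log2 change 0.97). It rose less than in wild type (log2 change 1.79, difference -0.82 ± 0.11, adjusted p = 5.79e-04). aap-1, the adaptor of the phosphoinositide 3-kinase, went from 14.8, 13.2 and 14.8 FPKM to 32.1, 30.9 and 30.5 FPKM (log2 change 1.08). ist-1, an insulin receptor substrate homologue, fell from 13.4, 14.6 and 14.04 FPKM to 5.05, 5.41 and 5.43 FPKM in the mutants (log2 change -1.25 ± 0.09, adjusted p = 1.20e-07). Its log2 change in wild type was -0.14 (adjusted p = 0.198; difference -1.11 ± 0.13, adjusted p = 2.29e-04). Among the 23 insulin-like peptides tested of 40, the ligands of DAF-2, 16 fell and 3 rose (median log2 change -1.06). daf-28 fell from 21.1, 22.9 and 24.9 FPKM to 2.15, 1.51 and 1.79 FPKM (log2 change -3.09 ± 0.23, adjusted p = 1.07e-07). ins-4 fell from 9.97, 13.6 and 12.1 FPKM to 0.43, 0.24 and 0.80 FPKM (log2 change -3.12 ± 0.17, adjusted p = 8.92e-09). ins-2 went the opposite way, from 2.98, 2.50 and 2.26 FPKM to 46.1, 38.5 and 39.1 FPKM (log2 change 3.56 ± 0.19, adjusted p = 9.14e-09). It rose more than in wild type (log2 change 2.25, difference 1.32 ± 0.27, adjusted p = 0.00821).

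Genes of dividing cells and of early embryos were higher at 500 mM NaCl. All 28 cell division genes rose, 25 of them by more than 2-fold, with a median log2 change of 1.75. Of 20 tested genes of the early embryo 19 rose, with a median of 1.89. The summed FPKM of the 24 early genes was 110, 109 and 83.6 at 50 mM and 550, 302 and 564 at 500 mM in the mutants. That of the 28 cell division genes was 622, 503 and 483 and 2298, 1497 and 2071. Replicate 2 at 500 mM was the lowest of its group in both sums, and all libraries at 500 mM lay above all at 50 mM. cyb-3, a cyclin B that drives entry into mitosis, went from 68.5, 47.2 and 45.0 FPKM to 390, 256 and 367 FPKM (log2 change 2.64 ± 0.32, adjusted p = 8.40e-06). cdc-25.2, a phosphatase that activates mitotic kinases, went from 28.8, 22.2 and 20.6 FPKM to 160, 136 and 149 FPKM (log2 change 2.60). hcp-3, the centromeric histone, went from 12.8, 10.2 and 9.98 FPKM to 63.3, 50.9 and 60.2 FPKM (log2 change 2.30). pos-1 and mex-5 encode RNA-binding proteins that pattern the early embryo and are supplied by the mother. pos-1 went from 14.9, 15.3 and 8.93 FPKM to 121, 66.0 and 122 FPKM (log2 change 2.87 ± 0.36, adjusted p = 1.16e-05), mex-5 from 7.22, 7.48 and 4.50 FPKM to 50.7, 25.9 and 53.5 FPKM (log2 change 2.54).

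**Figure D3:**
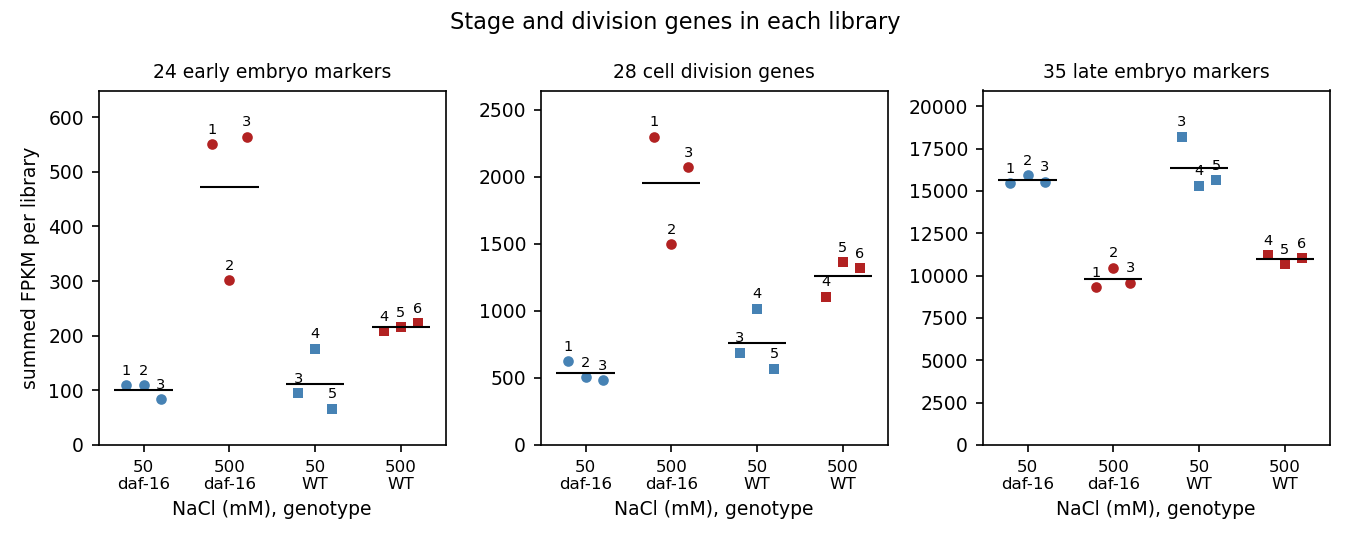
Summed FPKM per library of 24 early embryo genes, 28 cell division genes and 35 late embryo genes at 50 and 500 mM NaCl. Mutant libraries are circles and wild-type libraries squares, with the replicate number beside each point, 50 mM in blue, 500 mM in red and horizontal lines at the group means. In the mutants the early sum lies between 83.6 and 110 at 50 mM and between 302 and 564 at 500 mM, and the late sum falls from at least 15451 to at most 10467.

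In wild type the early sum was 94.9, 176 and 66.5 FPKM at 50 mM and 208, 216 and 223 FPKM at 500 mM, with replicate 4 at 50 mM the highest of its group. Cell division genes changed more positively in the mutants than in wild type for 20 of 28, beside 6.85% of all genes tested. However, this count was 7 to 27 when single libraries were left out. It was 7 without wild-type replicate 4 or mutant replicate 1 at 500 mM, 9 without mutant replicate 3 at 500 mM, and 8 and 10 without mutant replicates 2 and 3 at 50 mM. For the early genes the difference gave 0 calls by limma and 12 positive ones at an unadjusted p under 0.05. There were 13 calls without wild-type replicate 5 at 50 mM and 9 without mutant replicate 2 at 500 mM. The embryos' stage was not measured otherwise, and the part of these marker shifts in the other gene groups was not tested.

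Several of the largest gains belonged to genes whose libraries at 50 mM varied alike. cht-1, a chitinase, went from 32.6, 21.0 and 12.8 FPKM to 642, 495 and 589 FPKM (log2 change 4.72 ± 0.37, adjusted p = 1.73e-07). clec-266, a C-type lectin, went from 113, 67.2 and 56.9 FPKM to 1867, 1650 and 1620 FPKM (log2 change 4.48 ± 0.30, adjusted p = 4.96e-08). cav-1, the caveolin of germ line and embryo, went from 261, 175 and 171 FPKM to 1968, 1711 and 1773 FPKM (log2 change 3.19 ± 0.28, adjusted p = 4.88e-07). atz-1 went from 19.2, 11.4 and 8.49 FPKM to 260, 180 and 227 FPKM (log2 change 4.05). In each of the 4 genes replicate 1 was the highest of the mutant libraries at 50 mM, and the concentrations did not overlap. In wild type at 50 mM replicate 4 was the highest for all 4, at 81.2, 207, 467 and 41.8 FPKM. That library also had the highest early sum of its group. Mean levels in ssu-1 embryos at 50 mM were already 168, 702, 1405 and 117 FPKM. The part of embryo stage in these gains was not tested. F-box genes of the fbxb class belong to a family that brings proteins to ubiquitin ligases. fbxb-66 went from 3.91, 2.22 and 1.59 FPKM to 69.9, 54.6 and 64.5 FPKM (log2 change 4.21 ± 0.31, adjusted p = 9.43e-08), fbxb-41 from 3.12, 2.24 and 1.47 FPKM to 69.1, 43.1 and 64.2 FPKM (log2 change 4.19). Genes were also grouped, after the values were seen, into 144 classes that share the letters of their symbol and have at least 10 members tested. Of these classes fbxb had the highest share of members that rose by more than 2-fold, at 75 of 91 (82.4%) beside 13.5% of all genes. Its median log2 change was 1.63 in the mutants and 0.94 in wild type. Members of this class resemble each other in sequence, and their reads may have been split between them.

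Marker genes of the late embryo moved in different directions between tissues, with few genes in each. Of 9 muscle genes 8 fell, and of 7 neuronal genes 5 fell and 1 rose. Of 7 intestinal genes 4 fell and 1 rose, and of 6 epidermal and cuticle genes 4 rose. The shares over all genes tested were 37.1% that rose and 41.1% that fell. Larger lists of the epidermis went mostly the opposite way from its 6 markers. Of 101 cuticle collagens 61 fell and 16 rose, and of 16 epidermal peptides 7 fell and 3 rose. The muscle myosins myo-1 and myo-2 were named after their values were seen. myo-1 fell from 313, 295 and 292 FPKM to 117, 141 and 137 FPKM (log2 change -1.19), myo-2 from 373, 351 and 338 FPKM to 146, 171 and 168 FPKM (log2 change -1.13). unc-54, the main myosin of the body wall and named in the same way, fell less, from 667, 682 and 656 FPKM to 460, 536 and 521 FPKM (log2 change -0.40, adjusted p = 0.00269, but 0.0613 after quantile normalization). hch-1, a protease needed for hatching, went from 48.8, 31.9 and 34.3 FPKM to 237, 266 and 236 FPKM (log2 change 2.67 ± 0.24, adjusted p = 5.69e-07). noah-1, a protein of the embryonic apical matrix, went from 97.0, 74.5 and 84.0 FPKM to 379, 418 and 392 FPKM (log2 change 2.21).

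Genes for making and for degrading proteins moved apart. Of 63 cytosolic ribosomal protein genes 60 fell, with a median log2 change of -0.68. After rescaling to the same total 60 fell with a median of -0.49, but 16 with a median of -0.10 after quantile normalization. rpl-41.2 of the large subunit fell from 4892, 4657 and 4908 FPKM to 2939, 2136 and 2203 FPKM (adjusted p = 0.00211). rps-21 of the small subunit fell from 2101, 2310 and 2195 FPKM to 1151, 1020 and 980 FPKM (log2 change -1.07, adjusted p = 1.20e-05). rps-25 fell from 3298, 3192 and 3335 FPKM to 1984, 1734 and 1668 FPKM (log2 change -0.87, adjusted p = 2.13e-04). Of 33 proteasome subunits 19 rose and 2 fell, with a median log2 change of 0.36 beside -0.08 in wild type, where 5 rose and 11 fell. rpn-6.1, a lid subunit, went from 47.4, 42.1 and 44.8 FPKM to 101, 91.8 and 98.7 FPKM (log2 change 1.10 ± 0.07, adjusted p = 2.66e-08; difference 0.53 ± 0.10, adjusted p = 0.00411). rpn-11, the deubiquitinase of the lid, went from 55.4, 49.5 and 52.5 FPKM to 97.6, 75.6 and 92.6 FPKM (log2 change 0.74; difference 0.75 ± 0.17, adjusted p = 0.0118). For 20 of the 33 subunits the change was more positive than in wild type, beside 6.85% of all genes tested. The count was 25 after rescaling and 18 after quantile normalization. Without single libraries the count was 11 to 27, with 11 without wild-type replicate 4 at 500 mM and 12 without mutant replicate 1 or 3 at 500 mM or replicate 2 at 50 mM.

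Among the genes that fell furthest was col-93, a cuticle collagen. It fell from 276, 260 and 294 FPKM to 1.83, 1.09 and 1.70 FPKM (log2 change -6.78 ± 0.20, adjusted p = 1.36e-10). phat-7, of a family expressed in pharyngeal glands, fell from 206, 188 and 233 FPKM to 0.96, 1.02 and 1.14 FPKM (log2 change -6.68 ± 0.21, adjusted p = 2.07e-10). The saposin-like genes spp-23 and spp-17 belong to a family with antimicrobial members in the gut. spp-23 fell from 228, 212 and 246 FPKM to 1.77, 1.71 and 1.42 FPKM (log2 change -6.45 ± 0.17, adjusted p = 1.12e-10), spp-17 from 157, 126 and 164 FPKM to 2.57, 1.38 and 1.63 FPKM (log2 change -5.72). The mean level of col-93 at 50 mM was 179.6 times that at 500 mM, and that of phat-7 was 201 times. F46F2.3 fell from 509, 494 and 574 FPKM to 7.21, 7.14 and 5.30 FPKM in the mutants (log2 change -6.13 ± 0.24, adjusted p = 7.95e-10). It fell further than in wild type, where 54.6 to 75.9 FPKM remained (difference -3.05 ± 0.34, adjusted p = 1.21e-04).

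Detoxification and immune families fell broadly. Of 45 glutathione transferases 36 fell and 2 rose, with a median log2 change of -2.04. The 128 cytochrome P450 and UDP-glucuronosyltransferase genes included 92 that fell and 27 that rose. gst-33 fell from 118, 107 and 117 FPKM to 1.12, 1.70 and 0.86 FPKM (log2 change -5.71 ± 0.18, adjusted p = 2.07e-10). gst-14 fell from 54.1, 48.7 and 56.9 FPKM to 0.54, 0.37 and 0.58 FPKM (log2 change -5.18). The cytochrome P450 cyp-13A5 fell from 111, 101 and 132 FPKM to 0.30, 0.55 and 0.67 FPKM (log2 change -6.26 ± 0.19, adjusted p = 1.36e-10). cyp-13A12 of the same family fell from 60.9, 65.6 and 65.9 FPKM to 0.52, 0.63 and 0.38 FPKM (log2 change -5.43). Of 124 lysozymes and C-type lectins 101 fell and 13 rose. The lysozyme lys-2 fell from 72.7, 65.2 and 72.9 FPKM to 3.18, 4.06 and 3.59 FPKM (log2 change -3.95). In all, 22 genes went from above 10 FPKM in every mutant library at 50 mM to under 0.5 FPKM in every one at 500 mM. Of these, ugt-41, a UDP-glucuronosyltransferase, went from 16.1, 17.4 and 18.2 FPKM to 0.15, 0.17 and 0.26 FPKM. Its decrease was larger than in wild type (difference -1.23 ± 0.27, adjusted p = 0.0105). E02C12.6 and E02C12.10, also among them, fell to 0.17 to 0.35 and 0.02 to 0.07 FPKM (log2 changes of -5.42 for each), and T16G1.4 had a log2 change of -5.64.

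**Figure D4:**
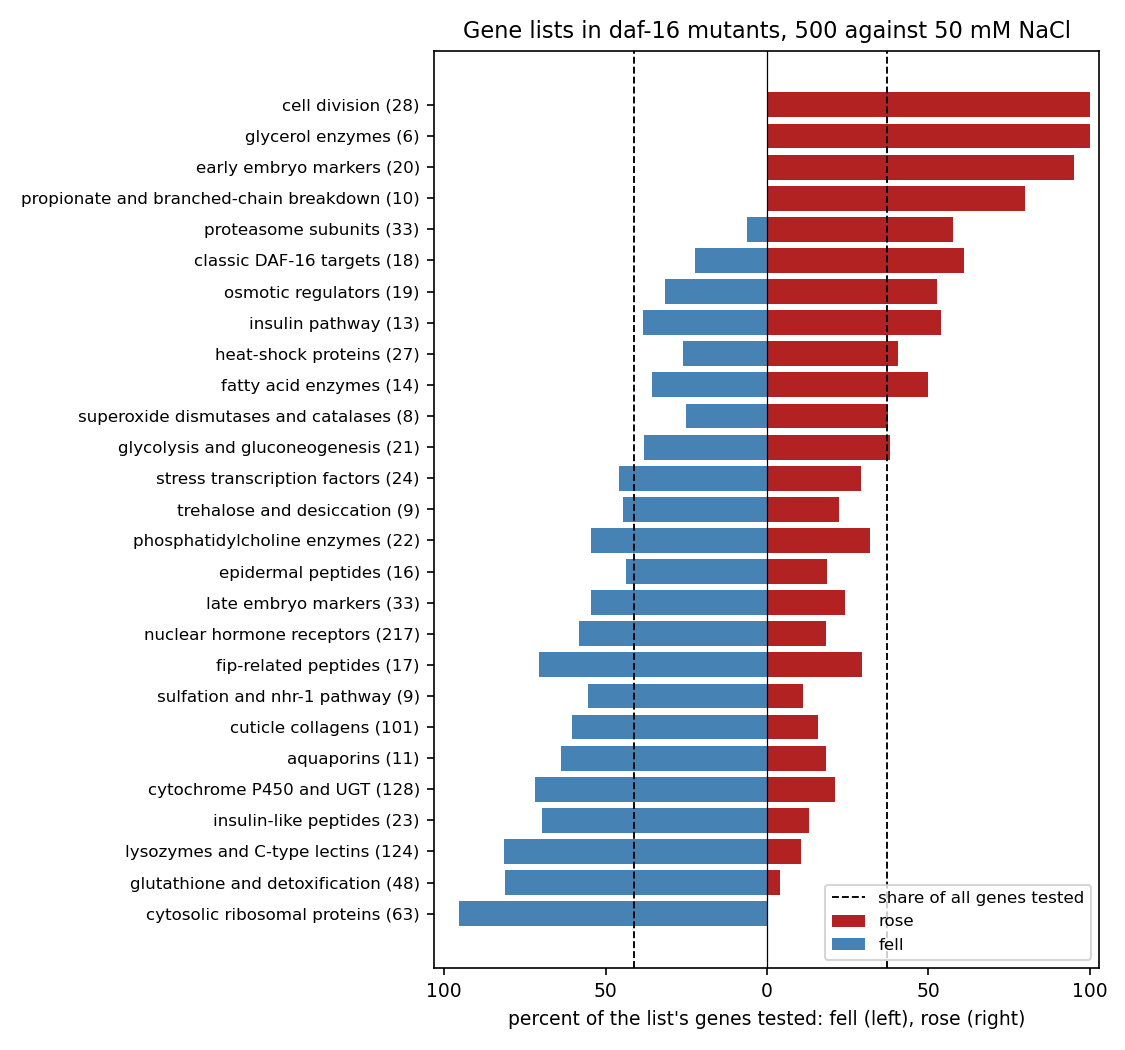
Percent of the tested members of each gene list that rose (right) and fell (left) with 500 mM NaCl in daf-16 embryos past an adjusted p of 0.05, for lists with at least 6 members tested. Dashed lines mark the shares over all genes tested, 37.1% and 41.1%. The glycerol, cell division and early embryo lists lie far to the right, and the ribosomal protein, glutathione and lectin lists far to the left.

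Many collagens and nuclear receptors fell as well. Of 101 cuticle collagens tested 61 fell and 16 rose in the mutants, beside 35 and 38 in wild type. The median log2 changes were -0.61 and 0.10. For 39 of them the change was more negative than in wild type, beside 11.2% of all genes tested. The count was 27 after rescaling and 32 after quantile normalization. Without single libraries it was 21 to 51, with 21 without mutant replicate 2 at 50 mM, 23 without mutant replicate 3 at 500 mM and 24 without wild-type replicate 4 at 500 mM. col-147 fell from 631, 607 and 704 FPKM to 18.7, 22.6 and 21.1 FPKM (log2 change -4.90), and the abundant col-10 fell from 2361, 2571 and 2464 FPKM to 540, 600 and 533 FPKM (log2 change -2.14). Of 217 nuclear hormone receptors 126 fell and 40 rose. nhr-178 fell from 24.4, 27.0 and 28.6 FPKM to 0.69, 0.89 and 0.94 FPKM (log2 change -3.91). daf-36, which carries out an early step in the synthesis of the steroid hormone dafachronic acid, fell from 17.3, 17.3 and 20.3 FPKM to 1.46, 0.96 and 1.45 FPKM (log2 change -3.08 ± 0.16, adjusted p = 8.43e-09). daf-12, the receptor of that hormone, fell from 27.1, 29.0 and 26.7 FPKM to 11.6, 13.4 and 13.7 FPKM (log2 change -1.04). Both are in a list of 9 genes of sulfation and hormone signalling, of which 5 fell and 1 rose. The gut protease cpr-1, of the cathepsin B group, fell from 361, 340 and 375 FPKM to 22.7, 24.4 and 24.3 FPKM (log2 change -3.86). asp-1, an aspartyl protease, fell from 3090, 3037 and 3105 FPKM to 953, 1067 and 957 FPKM (log2 change -1.63). cpr-4 fell less than in wild type, from 140, 129 and 147 FPKM to 35.9, 41.4 and 37.0 FPKM in the mutants and to 8.06 to 9.44 FPKM in wild type (difference 2.16 ± 0.23, adjusted p = 8.48e-05). ant-1.1 and F41F3.3 were among the 8 genes that lost the most FPKM. ant-1.1, the mitochondrial carrier that exchanges ADP and ATP, fell from 3730, 3516 and 3834 FPKM to 2225, 2140 and 2097 FPKM (log2 change -0.78). F41F3.3 fell from 5582, 6450 and 4614 FPKM to 2738, 2068 and 1924 FPKM (log2 change -1.31, beside 0.36 in wild type, difference -1.68 ± 0.28, adjusted p = 0.00227). Of 24 transcription factors of stress responses 7 rose and 11 fell, beside 37.1% and 41.1% of all genes tested. After rescaling to the same total 10 of them rose and 7 fell. The bZIP factor cebp-1 fell from 158, 144 and 165 FPKM to 65.1, 64.0 and 66.7 FPKM (log2 change -1.24). The FOXA factor pha-4 rose from 76.7, 71.0 and 70.7 FPKM to 125, 149 and 139 FPKM (log2 change 0.91).

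Most of the genes that changed by more than 2-fold in the mutants changed in the same direction in wild type. Of the 2006 genes more than 2-fold higher in daf-16 embryos, 1857 also rose in wild type by the adjusted p, beside 36.7% of all genes tested. Of the 2646 lower genes 2487 also fell there, beside 33.5%. By the 2-fold rule 1003 higher genes were shared, 50.0% of those of the mutants and 72.8% of the 1377 of wild type (9.26% of genes tested). Likewise 1613 lower genes were shared, 61.0% and 87.8% of the 1838 of wild type (12.4%). These genes were chosen on the mutant change, and their changes were larger in the mutants. The median log2 changes were 1.40 in the mutants and 1.00 in wild type for the higher and -1.44 and -1.15 for the lower genes. The direct test of the difference called 1018 genes (6.85%) with a more positive and 1667 (11.2%) with a more negative log2 change in the mutants. After rescaling to the same total it called 1228 and 1169. Of the 2006 higher genes it called 442 as more positive, 52 as more negative and 1512 as neither. Of the 2646 lower genes it called 575 as more negative, 56 as less negative and 2015 as neither.

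**Figure D5:**
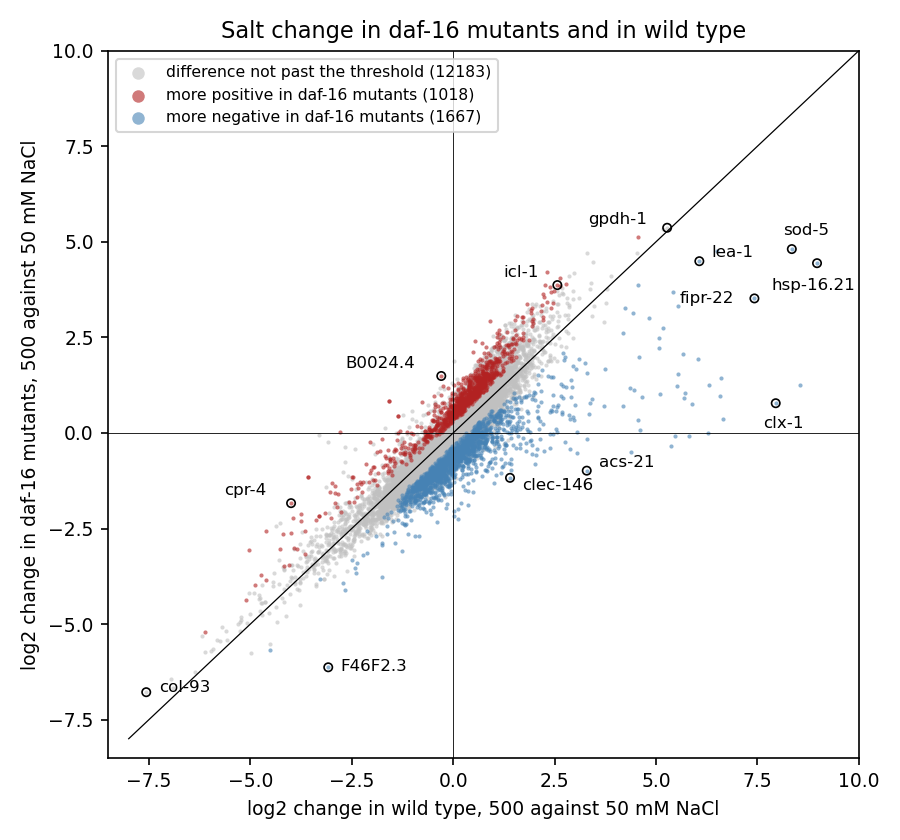
Log2 change with 500 mM NaCl in wild type (x axis) and in daf-16 mutants (y axis) for each gene tested. Genes whose change was more positive (1018) or more negative (1667) in the mutants are in color and the remaining 12183 in grey. gpdh-1 lies near the diagonal, whereas sod-5, hsp-16.21 and clx-1 lie far below it.

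The number of such differences depended on single libraries. The more positive count was 1621 without wild-type replicate 5 at 50 mM and 362 and 578 without wild-type replicates 4 and 6 at 500 mM. It was 361 and 539 without mutant replicates 2 and 3 at 50 mM, and 414 and 396 without mutant replicates 1 and 3 at 500 mM. The more negative count was 908 without wild-type replicate 4 at 500 mM, 907 and 1046 without mutant replicates 2 and 3 at 50 mM, and 1023 and 1052 without mutant replicates 1 and 3 at 500 mM. In addition, 2 of the 3 wild-type libraries at 50 mM have library numbers from another run of numbers than the other libraries of this experiment. With the wild-type library of the same run alone the more positive count was 1572. C24H12.7 and B0024.4 had some of the largest positive differences. C24H12.7 went from 0.23, 0.57 and 0.44 FPKM to 6.71, 5.37 and 7.21 FPKM in the mutants (difference 1.86 ± 0.24, adjusted p = 3.98e-04). B0024.4 went from 4.00, 2.56 and 3.83 FPKM to 8.54, 14.2 and 12.1 FPKM (difference 1.78 ± 0.35, adjusted p = 0.00627). By the 2-fold rule 0 genes were higher in the mutants and lower in wild type, and 4 were lower in the mutants and higher in wild type. Of the 4, the C-type lectin gene clec-146 fell from 7.21, 9.62 and 9.62 FPKM to 3.06, 3.66 and 3.26 FPKM in the mutants and reached 24.2 to 35.1 FPKM in wild type (difference -2.58 ± 0.27, adjusted p = 7.64e-05). The others were F31A3.3, Y54G2A.41 and F47B8.8, named after their values were seen (differences -2.15, -2.32 and -2.22).

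The ssu-1 mutants, from libraries that share none with the daf-16 experiment, gave a smaller set of changes. Of 13924 genes tested there, 212 (1.52%) rose and 158 (1.13%) fell by more than 2-fold, against 13.5% and 17.8% in daf-16 mutants. Wild-type embryos of that experiment had 403 (2.89%) and 357 (2.56%) such genes, beside the 9.26% and 12.4% of wild type in the daf-16 experiment, and the responses of the mutants were not tested against each other. Among genes tested in both experiments, 146 rose in both mutants, which was 7.38% of the daf-16 and 69.2% of the ssu-1 genes. Of the lower genes 131 fell in both, 5.49% and 83.4%. By the 2-fold rule 0 genes rose in daf-16 and fell in ssu-1 mutants, and 6 fell in daf-16 and rose in ssu-1 mutants. By the adjusted p alone, 171 of 5366 and 215 of 5463 genes moved in opposite directions in this way. Among the genes tested in the ssu-1 experiment 18.1% fell and 18.5% rose in ssu-1 mutants by the adjusted p. Glycerol enzymes and acdh-2 rose in each. gpdh-1 had a log2 change of 5.37 in daf-16 and 5.99 in ssu-1 mutants, gpdh-2 of 1.75 and 2.35, pgph-2 of 5.12 and 4.75, and acdh-2 of 5.34 and 4.04. Several other named genes of the daf-16 response had smaller log2 changes in ssu-1 mutants, differences that were not tested. lea-1 had log2 changes of 4.49 and 0.42, sod-5 of 4.81 and 0.53 and hsp-16.21 of 4.44 and 0.54 (adjusted p = 0.0764 in ssu-1 mutants). cyb-3 had 2.64 and 0.10 (adjusted p = 0.465), and in ssu-1 embryos it already stood at 354 and 374 FPKM at 50 mM, against 45.0 to 68.5 FPKM in daf-16 embryos. osm-11 had -1.98 and 0.12 (adjusted p = 0.376), and in ssu-1 embryos it already stood at 42.3 and 50.1 FPKM at 50 mM, against 207 to 218 FPKM. The part of these starting levels in the smaller changes was not tested. Among the genes that fell furthest, col-93, phat-7 and cyp-13A5 fell in both, with log2 changes of -6.78 and -3.18, of -6.68 and -2.52 and of -6.26 and -2.12.

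Genes that changed lay beside each other more often than genes in general. Of 1900 higher genes with a place in the RefSeq gene order of assembly WBcel235, 782 (41.2%) had a directly adjacent tested gene that was also more than 2-fold higher, beside 24.6% of all 14078 genes placed. Of 2571 lower genes 1303 (50.7%) had an adjacent lower gene, beside 31.8%. These shares are descriptions without a test, and genes of one family or operon often lie side by side.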

How the data were processed

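RNA of whole embryos was sequenced as stranded, paired-end libraries. The submitters' processing notes name RSEM 1.2.15, Bowtie 1.0.1 and the ce10 assembly, and the authors deposited FPKM per gene and library in 1 table, in which all 22 columns matched a sample. From its 45461 rows 1 was dropped because it named no gene. Names and gene order came from RefSeq (WBcel235), with 44079 of 45460 identifiers matched, and 10 members of the gene lists were not matched. Groups were taken from the sample titles and the experiments from the library numbers. The study's count test, DESeq2 on rounded expected counts, was not run because the deposited values are FPKM. A planned search of promoter sequences was not run for want of the sequences.

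Changes were tested with limma 3.58.1 in R 4.3.3 (lmFit, eBayes with trend) on log2(FPKM + 1), in 1 fit of the 12 libraries of the daf-16 experiment without covariates, restricted to genes that reached 1 FPKM in 2 or more libraries. The contrasts were 500 against 50 mM NaCl in each genotype and their difference (the interaction). The ssu-1 experiment was fitted separately in the same way over its 10 libraries. P-values were adjusted by Benjamini-Hochberg over all genes tested, with a threshold of 0.05, and rose and fell mean past it. The text names the 15 genes with the largest and the 15 with the smallest log2 change among those whose concentrations do not overlap, the 8 with the largest gain and loss of FPKM and the 8 with the largest differences from wild type in each direction, up to 4 members of each list and any whose role the list turns on, and genes the study names, selected from these for the text. Others are marked. Of the genes selected 1 is not reported here. The lists, members and rule were chosen with earlier results of these data known. The depth, which the table does not hold, was estimated from the steps between small FPKM values, and it limits most the precision of weakly expressed genes. Of the genes tested 88 had values identical to another gene. The tests were checked on simulated data. Python 3.11.15 with matplotlib 3.10.9 drew the plots. Alternatives were a pseudocount of 0.1, no filter, 2 other scalings, limma without trend, a replicate block, other sets of libraries and each library left out. Fits of the 6 mutant libraries with a block and list counts without single libraries were added after the data were seen.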

Additional observations from a re-analysis of the deposited data

Results flagged for a closer look

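The salt response differed between daf-16 mutants and wild type by the limma interaction for 1018 genes with a more positive and 1667 with a more negative log2 change in the mutants, and the values that follow are the differences of log2 changes, mutant minus wild type, of the named genes that passed this test. Among stress and defence genes they were -5.62 for ilys-6, -5.04 for hsp-12.6, -4.53 for hsp-16.21, -3.91 for fipr-22, -3.73 for sod-3, -3.54 for sod-5, -2.77 for ctl-3, -2.58 for clec-146, -1.58 for lea-1, -1.21 for nlp-27, -1.02 for fipr-21 and 1.55 for cnc-2. Among metabolic genes they were -4.28 for acs-21, -1.49 for fat-6, -1.23 for ugt-41, 0.66 for gpdh-2 and 1.30 for icl-1. In the insulin-like pathway they were -1.11 for ist-1, -0.82 for akt-1, -0.74 for daf-16, 0.50 for aap-1 and 1.32 for ins-2. Among proteases, proteasome and ribosomal genes they were -0.85 for rps-21, 0.53 for rpn-6.1, 0.75 for rpn-11 and 2.16 for cpr-4. The F-box genes fbxb-19 and fbxb-66 had 1.22 and 1.88. The remaining genes that passed were clx-1 (-7.17), F46F2.3 (-3.05), Y54G2A.41 (-2.32), F47B8.8 (-2.22), F31A3.3 (-2.15), T23F2.4 (-1.73), F41F3.3 (-1.68), B0024.4 (1.78) and C24H12.7 (1.86).

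A further 12 genes passed but lost the threshold when single libraries were left out, and 11 of them also under an alternative that left out none. They were acdh-1 (-1.52), tts-1 (-0.95), ftn-1 (-0.68), myo-1 (-0.52), myo-2 (-0.50), aqp-7 (-0.45), elo-2 (-0.41), pyc-1 (0.44), pgph-2 (0.55), cpr-1 (0.76), hcp-3 (0.96) and atz-1 (1.42).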

How the results depend on the processing

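The numbers of genes higher, lower and past 2-fold in the mutants stayed within 1.5 times their values under every alternative run, with 2463 higher and 3483 lower genes past 2-fold at a pseudocount of 0.1, and 1924 to 2188 and 2568 to 2735 when single libraries were left out. The differences from wild type were less stable: without single libraries the more positive count (1018) was 361 to 1621 and the more negative count (1667) 907 to 2309, and with the wild-type 50 mM library of the same run of numbers alone the more positive count was 1572. Counting by the adjusted p alone, without the 2-fold limit, raised the genes shared with ssu-1 mutants from 146 to 2041 for the higher and from 131 to 1793 for the lower genes. Whether mutant libraries with the same replicate number are pairs is not known. Their deviations correlated by 0.28, 0.13 and -0.07, which cannot decide it with 3 libraries per group. A replicate block gave 629 more positive and 1208 more negative differences and left 2006 and 2646 genes past 2-fold. Of 111 log2 changes of named genes 106 kept their direction and side of the threshold under every alternative run, 4 (F44E5.4, F44E5.5, ctl-3 and unc-54) lost it under at least 1, 1 (hsp-16.2) passed it in 2 fits, and 0 reversed. Of 49 differences of named genes 37 kept their call and 12 lost it under at least 1. The cause of these shifts was not tested. Depth limits genes near 1 FPKM most, and no count of fragments behind a value was used.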

Other observations

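Other gene classes, formed by the letters of their symbols and examined after their values were seen, moved with salt in daf-16 embryos as well. Over all genes tested 41.1% fell, and 17.8% fell by more than 2-fold. All 30 genes tested for FMRFamide-like neuropeptides (flp) fell, 25 of them (83.3%) by more than 2-fold, with a median log2 change of -1.40 beside -1.01 in wild type. Of 73 genes for other neuropeptide-like proteins (nlp) 63 fell and 2 rose (median -1.20), and of 20 acetylcholine receptor subunits (acr) 19 fell (median -0.95). Of 34 globins (glb), a family largely expressed in neurons, 29 fell and 1 rose (median -1.02). These decreases stood beside those of 5 of 7 neuronal marker genes, and whether neurons were fewer or held less of these transcripts cannot be told apart.

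All 12 autophagy genes (atg) rose, with a median log2 change of 0.69 beside 0.75 in wild type, and 3 of them rose by more than 2-fold. Over all genes tested 37.1% rose. Of 60 histone genes (his) 40 rose and 3 fell (median 0.78), although many histone genes are near-identical copies whose reads may have been split between them. The skr class, adaptors that bind F-box proteins in ubiquitin ligases, had 16 of 19 genes that rose and 3 that fell (median 1.48), and its share past 2-fold (57.9%) stood beside the 82.4% of the fbxb class and 13.5% of all genes tested.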
